A study of Rattus norvegicus with 24 samples.

Results

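Tctn3 (ENSRNOG00000060994), Zfp7 (ENSRNOG00000050497), Cda (ENSRNOG00000015677), Ak6 (ENSRNOG00000039848) and Retsat (ENSRNOG00000014090) are 5 of the 23950 gene rows measured in nucleus accumbens (NAc) RNA of postnatal day 14 (P14) Sprague Dawley rat pups. They were picked by gene name because earlier results of the same libraries had shown them high in some groups and low or at 0 in others. Their levels are therefore a description, and no test is attached to them. Expression was given as FPKM, fragments per kilobase of transcript scaled to the depth of each library.

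The 24 libraries fell into 6 groups of 4, with pups from separate litters. F1 in utero oxycodone (IUO) pups came from F0 dams gavaged with oxycodone at 10 mg/kg/day for 5 days, raised by 0.5 mg/kg/day for 10 days to 15 mg/kg/day, then mated and dosed until weaning. F1 postnatal oxycodone (PNO) pups came from F0 dams gavaged with 15 mg/kg/day from parturition until weaning. F1 saline pups were the controls. The F2 saline, F2 PNO and F2 IUO pups were the offspring of undosed F1 females of each condition and untreated males, so the F2 pups were reared by dams that were not dosed as adults. The groups address how the timing of exposure, and descent from an exposed mother, bear on NAc expression. The sex of each pup was not given. The exposed F1 pups of the IUO group met the drug before birth and through nursing, whereas those of the PNO group met it through nursing alone.

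The 5 genes have unrelated roles. Tctn3 encodes tectonic-3, a protein of the ciliary transition zone, the gate at the base of the primary cilium through which Hedgehog signalling components pass. Zfp7 encodes a C2H2 zinc finger protein, a class of mostly DNA-binding proteins. Cda encodes cytidine deaminase, which converts cytidine and deoxycytidine to uridine and deoxyuridine in pyrimidine salvage. Ak6 encodes adenylate kinase 6, a nuclear enzyme that exchanges phosphate between adenine nucleotides and takes part in ribosome maturation, and its locus is shared with Taf9, which encodes a subunit of TFIID. Retsat encodes retinol saturase, which saturates a double bond of retinol in the endoplasmic reticulum.

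RefSeq start sites were at hand for 3 of the 5 genes, Tctn3, Cda and Retsat. The 250 bases before each start (build GRCr8, read 5′ to 3′ on the gene's strand) are shown because Tctn3 and Cda were listed at 0 in whole groups and because Retsat starts back to back with the next gene described here. Capitals mark a CCAAT box (CCAAT) or a GC box (GGGCGG) on either strand. The Tctn3 window is chr1:249374699-249374948 on the minus strand, the Cda window chr5:155866542-155866791 on the minus strand and the Retsat window chr4:106211209-106211458 on the plus strand.
Tctn3: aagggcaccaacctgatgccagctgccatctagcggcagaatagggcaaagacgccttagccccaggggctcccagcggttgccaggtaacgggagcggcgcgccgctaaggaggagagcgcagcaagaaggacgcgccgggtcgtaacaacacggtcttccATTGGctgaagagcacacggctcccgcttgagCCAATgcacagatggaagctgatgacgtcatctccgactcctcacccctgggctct
Cda: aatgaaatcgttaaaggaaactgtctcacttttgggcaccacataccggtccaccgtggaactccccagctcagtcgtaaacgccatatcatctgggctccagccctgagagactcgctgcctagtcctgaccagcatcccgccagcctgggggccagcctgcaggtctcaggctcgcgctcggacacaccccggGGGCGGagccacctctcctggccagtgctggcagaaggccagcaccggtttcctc
Retsat: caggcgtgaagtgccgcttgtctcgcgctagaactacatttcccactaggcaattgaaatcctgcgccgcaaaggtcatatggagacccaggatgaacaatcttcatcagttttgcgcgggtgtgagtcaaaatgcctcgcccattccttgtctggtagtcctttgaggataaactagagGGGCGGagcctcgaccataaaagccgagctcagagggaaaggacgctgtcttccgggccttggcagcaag

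The Tctn3 window held 2 CCAAT boxes, 1 on each strand, and no GC box. Cda and Retsat each held 1 GC box and no CCAAT box, and none of the 3 windows held the letters TATAAA. Over all 33469 listed start sites, 34.0% of windows of this length held CCAAT, 30.5% held GGGCGG and 12.9% held TATAAA. All 3 windows were rich in CG, with 18 CG dinucleotides before Tctn3, 13 before Cda and 14 before Retsat, against a median of 5 per window. The start sites of Elmod3, which runs the other way, lie 230 and 253 bases before that of Retsat.

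The label of group-specific on or off expression held for 2 of the 5 genes. Here an on/off row is one listed at 0 in all 4 libraries of 1 group and at 0.5 FPKM or more in all 4 libraries of another. Only 12 of 23950 rows met this (0.0501%), and Tctn3 and Zfp7 were among them. With on set at 1 FPKM there were 7 such rows and Zfp7 was not among them, and with on set at 0.2 FPKM there were 46 and Cda joined. Leaving out 1 library gave 12 to 29 rows, the most without replicate 3 of F2 IUO, and Cda joined without replicate 2 of F2 saline. Cda stood just outside, with a lowest value of 0.46 in its fullest group, F2 saline. The rows nearest the limit were AABR07072414.1 at 0.52 inside it and AC096473.1 at 0.49 outside it. Ak6 and Retsat were never listed at 0, and their lowest values were 13.63 and 12.29 FPKM, so for them the data go against the label and they are described by their levels.

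**Figure D1:**
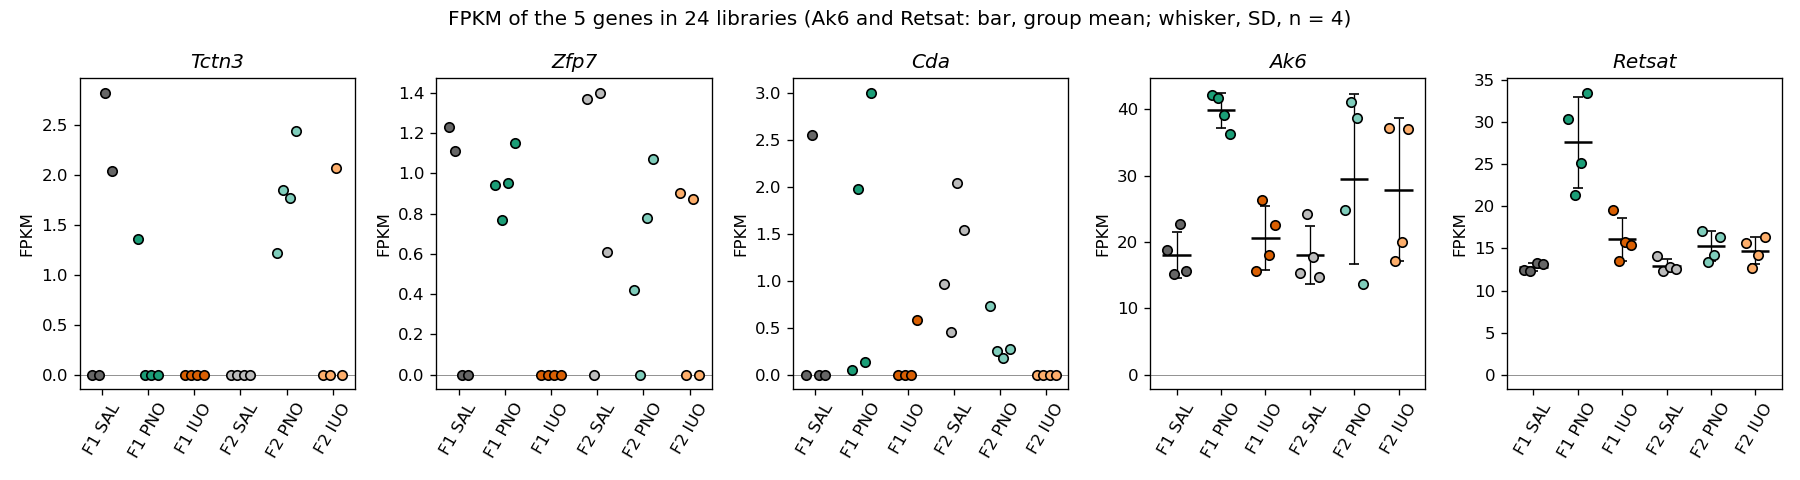
FPKM of Tctn3, Zfp7, Cda, Ak6 and Retsat in each of the 24 libraries, by group on the x axis with 4 points per group; for Ak6 and Retsat the bar is the group mean and the whisker the SD. Tctn3, Zfp7 and Cda are at 0 in every library of at least 1 group, Ak6 splits into libraries at 13.63 to 26.35 and at 36.30 to 42.16, and the 4 F1 PNO libraries of Retsat, from 21.36, lie above all others.

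Tctn3 was listed at 0 in 16 of the 24 libraries. In F1 saline it was 0, 0, 2.82 and 2.04 FPKM in replicates 1 to 4. In F1 PNO it was 1.36 in replicate 1 and 0 in the other libraries, and in F1 IUO it was 0 in all 4. The F1 groups overlapped, since F1 saline held both states.
In F2 saline it was again 0 in all 4. In F2 PNO it was 1.22, 1.85, 1.77 and 2.44. In F2 IUO it was 2.07 in replicate 3 and 0 elsewhere. F2 PNO was the only group above 0 throughout, and it did not overlap F2 saline, which held for 7.01% of all rows tested in that comparison.

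The Tctn3 libraries above 0 did not fall into a single exposure or generation. Values above 0 occurred in 2 of 8 saline, 5 of 8 PNO and 1 of 8 IUO libraries, and in 3 of 12 F1 and 5 of 12 F2 libraries. The full group (F2 PNO) and the F1 group of the same lineage differed, at 4 of 4 and 1 of 4. The empty F1 IUO and F2 saline groups shared neither exposure nor generation. Of the variation of log2(FPKM + 0.1) over the 24 libraries, 51.96% lay between the 6 groups, against a median of 27.81% over 19134 rows. As Tctn3 was picked for its levels, nothing is read from the difference.

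Another row, LOC100912537, carried the same description (tectonic-3) and was above 0 in all 24 libraries, from 0.46 to 3.15 FPKM. In the 8 libraries with Tctn3 above 0 the 2 rows were nearly equal, with Tctn3 at 0.851 to 0.992 of LOC100912537 (median 0.950). In the 16 libraries with Tctn3 at 0, LOC100912537 was 0.46 to 3.15, a range that takes in the 1.28 to 2.97 of the other 8.
By group, LOC100912537 ranged from 2.42 to 2.72 in F2 saline and from 1.28 to 2.46 in F2 PNO. On this row the 2 groups overlapped, with a log2 difference of F2 PNO from F2 saline of -0.42 ± 0.24 (SE; limma adjusted p = 0.55). On the Tctn3 row the same groups were apart in the other direction.

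The KEGG entry of the Tctn3 row is that of Aldh18a1, which encodes the enzyme of the first steps of proline synthesis. This was not particular to the Tctn3 row. LOC100912537, above 0 throughout, shared a KEGG entry with Tctn3 as well. The Zfp7, Cda and Ak6 rows also shared entries with rows of other descriptions. The Aldh18a1 row was also unsteady, under 1 FPKM in 11 libraries and at 5 or more in 7, over a range of 0.08 to 7.91. LOC108348083, with the same description as Aldh18a1, stayed between 5.39 and 9.02. Where Aldh18a1 reached 5, it was 0.863 to 1.16 of LOC108348083. Aldh18a1 was under 1 in 5 of the 8 libraries with Tctn3 above 0 and in 6 of the 16 with Tctn3 at 0, so the pair of rows did not switch together.
Entpd1, an ectonucleotidase gene next to Tctn3 in the RefSeq order, was at 0 in replicate 4 of F1 saline and of F2 PNO, and Tctn3 was 2.04 and 2.44 there. Entpd1 was under 0.5 FPKM in 3 of the 8 libraries with Tctn3 above 0 and in 1 of the 16 with Tctn3 at 0.

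Other transition zone genes, among them subunits of the same ciliary gate, gave no call. None of the 16 passed limma's test at an adjusted p of 0.05 in any of the 9 comparisons, against 35 calls in 155517 tests of all rows (0.0225%), and 14 of 144 tests (9.72%) had an unadjusted p under 0.05, against 9.87% over all rows. The smallest p values belonged to Ahi1, a Joubert syndrome gene, with 31.9 ± 3.73 FPKM in F1 IUO and 22.0 ± 3.05 in F1 PNO (SD, n = 4). Its limma adjusted p was 0.12. Iqcb1 was 7.24 ± 0.951 in F2 PNO and 5.03 ± 0.287 in F2 saline (adjusted p = 0.37), and Cep290 was 0.703 ± 0.190 in F2 IUO and 1.45 ± 0.304 in F1 IUO (adjusted p = 0.25), by limma. The share of small p values in the list was near that of all rows.

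Zfp7 was listed at 0 in 10 libraries. In F1 saline it was 1.23, 1.11, 0 and 0 FPKM. In F1 PNO it was 0.94, 0.77, 0.95 and 1.15, and in F1 IUO it was 0 in all 4. F1 IUO therefore lay below F1 PNO without overlap, while F1 saline held both states. Of rows tested in that comparison, 10.5% were without overlap, counting both directions.
In F2 saline the values were 1.37, 0, 1.40 and 0.61. In F2 PNO they were 0.42, 0, 0.78 and 1.07. In F2 IUO they were 0.90, 0, 0.87 and 0. All 3 F2 groups overlapped, and replicate 2 was at 0 in each of them.

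For Zfp7, 5 of 8 saline, 7 of 8 PNO and 2 of 8 IUO libraries were above 0, with 6 of 12 in F1 and 8 of 12 in F2. F1 IUO was listed at 0 in 4 of 4 libraries and F2 IUO, of the same lineage, in 2 of 4. The share of variation between groups was 38.34%, the lowest of the 5 genes.

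The second row described as zinc finger protein 7, LOC108348145, was above 0 in all but 1 library, replicate 3 of F1 saline. In the 14 libraries with both rows above 0, Zfp7 was 0.634 to 0.939 of LOC108348145 (median 0.77). In the F1 IUO libraries, where Zfp7 was 0, the second row was 0.65, 1.26, 1.45 and 1.37. In F1 PNO it was 1.22, 1.16, 1.23 and 1.38. These 2 groups overlapped on LOC108348145, with a log2 difference of F1 IUO from F1 PNO of -0.12 ± 0.28 (SE; limma adjusted p = 0.87).

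**Figure D2:**
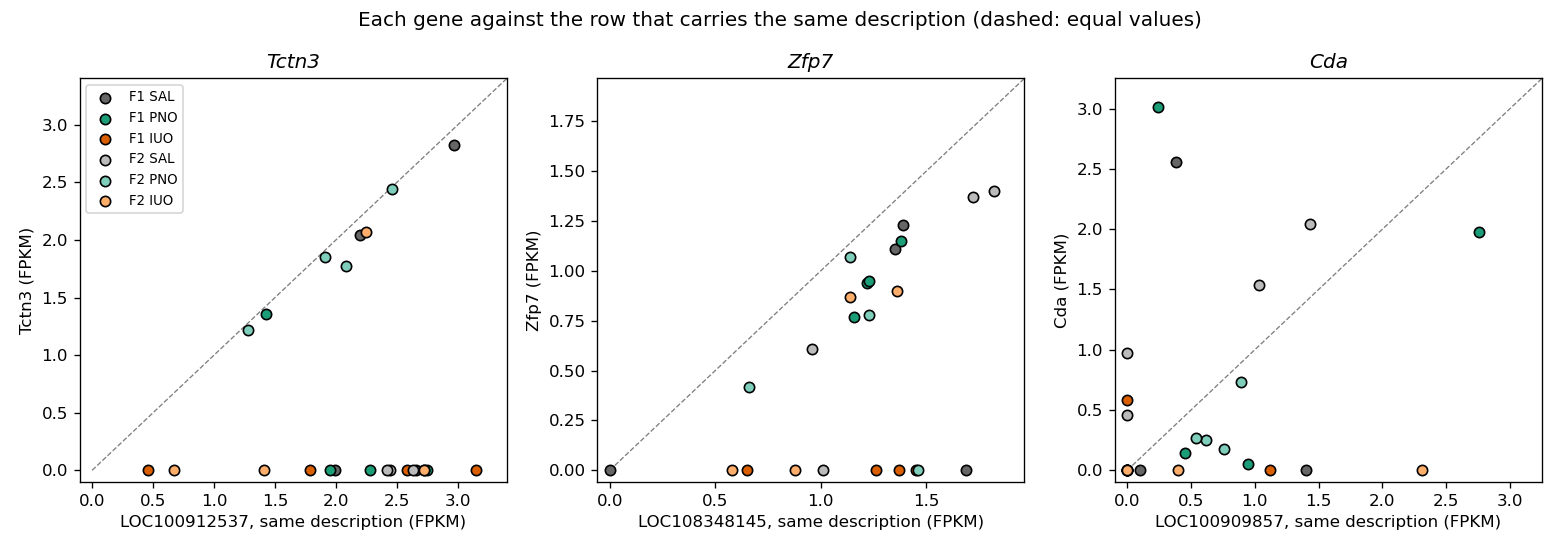
FPKM of Tctn3, Zfp7 and Cda (y axis) against the FPKM of the row with the same description (x axis) in 24 libraries coloured by group; the dashed line marks equal values. For Tctn3 and Zfp7 the libraries lie either close to the line, at 0.851 to 0.992 and 0.634 to 0.939 of the second row, or flat at 0 over the second row's range, whereas Cda scatters on both sides.

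Among 233 other numbered zinc finger genes (Zfp or Znf and a number), 227 to 229 were tested per comparison and none passed in any. An unadjusted p under 0.05 was found in 169 of 2058 tests (8.21%). The smallest belonged to Zfp687, at 4.64 ± 0.230 FPKM in F1 PNO and 7.26 ± 0.266 in F1 saline (SD, n = 4), with a limma adjusted p of 0.23. Zfp771 was 32.9 ± 1.94 in F2 IUO and 19.8 ± 3.40 in F2 PNO (limma adjusted p = 0.40). Zfp575 was 36.2 ± 1.63 in F2 PNO and 49.6 ± 1.64 in F2 saline (limma adjusted p = 0.25). In F1 PNO against F1 saline, 28 of the 36 genes with an unadjusted p under 0.05 were lower in F1 PNO, and over all rows 7.83% were lower and 6.11% higher at that limit. The list's median log2 difference was -0.11 beside -0.05 over all rows.

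Cda was listed at 0 in 10 libraries and was low or uneven in most others. In F1 saline it was 2.56 FPKM in replicate 2 and 0 in the rest. In F1 PNO it was 0.05, 1.98, 0.14 and 3.01, and in F1 IUO it was 0.58 in replicate 4 and 0 in the rest. All 3 F1 groups overlapped.
In F2 saline it was 0.97, 0.46, 2.04 and 1.54. In F2 PNO it was 0.73, 0.25, 0.18 and 0.27, and in F2 IUO it was 0 in all 4. F2 IUO did not overlap F2 saline (5.11% of rows tested) or F2 PNO (4.74%), both comparisons resting on the same 4 F2 IUO libraries.

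Of the 3 genes with values at 0, Cda had the widest gap between PNO and IUO libraries when any value above 0 was counted. It was above 0 in 8 of 8 PNO, 5 of 8 saline and 1 of 8 IUO libraries, and in 6 of 12 F1 and 8 of 12 F2 libraries. For none of the 3 genes was the share of all rows with such counts by exposure worked out. The 4 libraries with the most rows at 0 were all IUO libraries, so nothing particular to Cda is read from the gap. The single IUO library above 0 was the fourth of F1. The PNO libraries of F2, however, reached only 0.18 to 0.73, against 0.46 to 2.04 in F2 saline. At 0.5 FPKM or more, Cda stood in 2 of 4 F1 PNO and 1 of 4 F2 PNO libraries. The counts were 1 and 3 of 4 in F1 and F2 saline, and 1 and 0 of 4 in F1 and F2 IUO. The share of variation between groups was 47.26%.

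LOC100909857, also described as cytidine deaminase, was no steady counterpart. Both rows were above 0 in 11 libraries, with a ratio of Cda to LOC100909857 of 0.0526 to 12.5, both were at 0 in 5, Cda alone was at 0 in 5 and LOC100909857 alone in 3. In F2 IUO, where Cda was 0 in all 4, the second row was 0, 2.31, 0.40 and 0. In F2 saline it was 0, 0, 1.43 and 1.03. No comparison on LOC100909857 passed, the nearest being F1 IUO against F1 PNO with a log2 difference of -2.21 ± 0.94 (SE; limma adjusted p = 0.29).

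Of 20 other pyrimidine genes, 17 to 19 were tested and none passed in any comparison, with 13 of 163 tests (7.98%) at an unadjusted p under 0.05. All of the 3 smallest fell in F2 IUO against F2 saline. There 3 of 18 had an unadjusted p under 0.05, beside 1452 of 17097 over all rows. F2 IUO against F2 PNO rests on the same F2 IUO libraries with Cda at 0. It had 0 of 17, beside 1208 of 17090 over all rows. Uck2, a uridine-cytidine kinase of the same salvage route, was 11.1 ± 2.77 FPKM in F2 IUO and 5.50 ± 0.572 in F2 saline (SD, n = 4), with a limma adjusted p of 0.25. The nucleotidase gene Nt5c3a was 17.8 ± 2.06 against 12.2 ± 1.80 (limma adjusted p = 0.41). The mitochondrial thymidine kinase gene Tk2 was 11.2 ± 1.34 against 7.91 ± 0.541 (limma adjusted p = 0.44). All 3 were higher in F2 IUO, and none met the threshold.

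Libraries could be at 0 for several of these genes at once. All 3 of Tctn3, Zfp7 and Cda were at 0 in 5 libraries, 2 of them in 6, 1 in 9 and none in 4. The libraries with the most rows at 0 were replicate 4 of F2 IUO (7532 rows), replicates 1 and 4 of F1 IUO (7176 and 6941) and replicate 2 of F2 IUO (6892), against at most 6076 in the other 20. Tctn3 and Zfp7 were at 0 in all 4 of these IUO libraries and Cda in 3. The part of this in the values at 0 was not tested, and Tctn3 and Zfp7 were also at 0 in both remaining F1 IUO libraries.

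**Figure D3:**
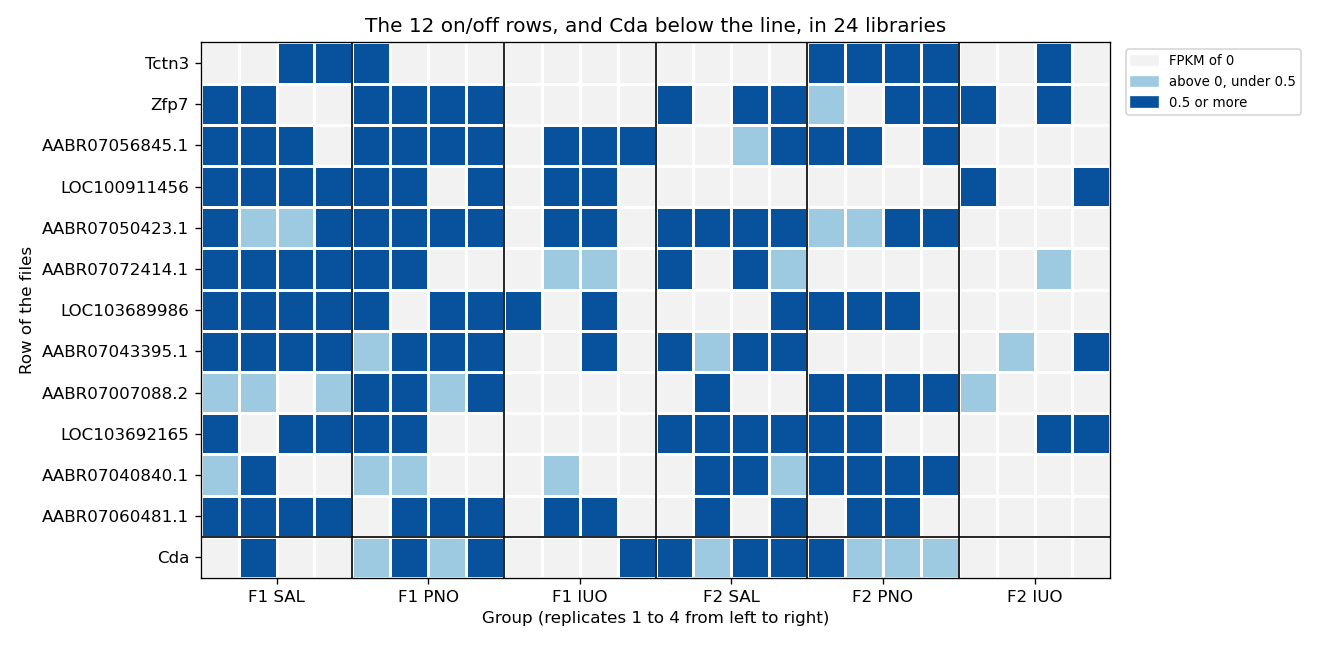
The 12 on/off rows and Cda (y axis) in the 24 libraries (x axis, by group, replicates 1 to 4), coloured by whether the FPKM is 0, above 0 and under 0.5, or 0.5 and more. Most rows also mix values at 0 and above 0 within other groups, as Tctn3 does in 3 groups and Zfp7 in 4.

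The other 10 on/off rows resembled Tctn3 and Zfp7 in this respect. Each of the 12 mixed libraries at 0 and above 0 in at least 1 further group, and none separated the 6 groups cleanly. An entire group at 0 occurred 5 times in F2 IUO, 4 in F1 IUO, 3 in F2 PNO, 2 in F2 saline and never in F1 saline or F1 PNO. Over all 23950 rows, those at 0 in all 4 libraries numbered 3958 in F2 IUO, 3457 in F1 IUO, 3431 in F2 saline, 3154 in F1 PNO, 2890 in F1 saline and 2705 in F2 PNO, so the IUO groups had the most there too. A description shared with another row was found for 5 of the 12 (41.67%), against 11.68% of all rows and 9.5% of rows at 0.5 FPKM or more in at least 4 libraries. Among the 921 such rows that were also at 0 in at least 4 libraries, whatever the groups, 24.54% shared a description. The 5 on/off rows that shared one were Tctn3, Zfp7, LOC100911456, AABR07050423.1 and LOC103689986. Tctn3 and Zfp7 were picked beforehand and are counted in the 41.67%.

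Ak6 was expressed in every library, with no value between 26.35 and 36.30 FPKM. In F1 saline it was 18.74, 15.13, 22.75 and 15.56 FPKM. In F1 PNO it was 42.16, 41.68, 39.04 and 36.30, and in F1 IUO it was 15.56, 26.35, 18.01 and 22.50. All 4 F1 PNO libraries were above both other F1 groups. Over all rows, 8.27% were without overlap in F1 PNO against F1 saline and 10.5% in F1 IUO against F1 PNO, counting both directions.
In F2 saline it was 15.33, 24.26, 17.69 and 14.67. In F2 PNO it was 24.78, 41.10, 38.61 and 13.63, and in F2 IUO it was 37.14, 17.19, 19.95 and 37.07. The 3 F2 groups overlapped, and F2 PNO and F2 IUO each held libraries on both sides of that gap.

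Sorted by value, 16 libraries lay between 13.63 and 26.35 and 8 between 36.30 and 42.16. The step between the sets was 1.38-fold, with no other step above 1.13-fold. The sets were cut at this largest step, in the same values that they describe. The 8 libraries were 4 F1 PNO, 2 F2 PNO and 2 F2 IUO libraries, with no saline or F1 IUO library among them. The group means were 18.0 ± 3.53 in F1 saline, 39.8 ± 2.70 in F1 PNO, 20.6 ± 4.79 in F1 IUO, 18.0 ± 4.38 in F2 saline, 29.5 ± 12.8 in F2 PNO and 27.8 ± 10.8 in F2 IUO (SD, n = 4). In order of mean (F2 saline, F1 saline, F1 IUO, F2 IUO, F2 PNO, F1 PNO) every group overlapped its neighbour, and F2 PNO and F2 IUO had the widest spreads. F1 PNO against F1 saline came to 2.21-fold, a log2 difference of 1.15 ± 0.14 (SE).

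The Ak6 row listed 2 transcripts and the KEGG orthology entries of both Ak6 and Taf9. The Taf9 row carried the same 2 entries. Taf9 ranged from 4.57 to 37.25 FPKM over the 24 libraries, and its log2 values had a Pearson r of -0.23 with those of Ak6. In the 8 libraries with Ak6 at 36.30 or more Taf9 was 8.20 to 12.35, which lies within the range of the other 16. The Ak6 and Taf9 rows shared no listed transcript. Whether reads of the 2 genes were mixed could not be checked from FPKM values, so the level of either row stays uncertain. In F1 PNO Taf9 was 9.93 ± 0.881, against 14.0 ± 3.51 in F1 saline (SD, n = 4; limma log2 difference -0.46 ± 0.18 SE, adjusted p = 0.31).
AABR07044933.1, also described as adenylate kinase 6, ranged from 4.75 to 10.0 over all libraries. Its values were 5.32 to 9.07 in F1 PNO and 5.17 to 8.32 in F1 saline, groups that overlapped on this row and not on Ak6.

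**Figure D4:**
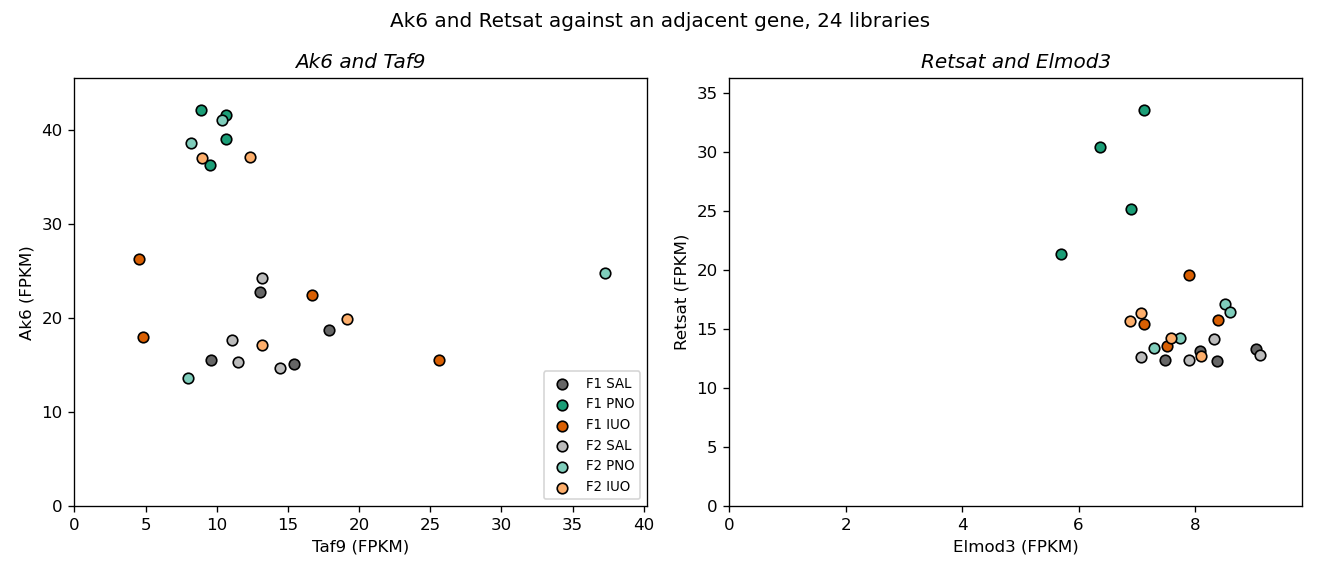
FPKM of Ak6 against Taf9 and of Retsat against Elmod3 in 24 libraries coloured by group, with both axes from 0. The 8 libraries with the higher Ak6 level have Taf9 at 8.20 to 12.35, and the 4 F1 PNO libraries with the highest Retsat have Elmod3 at 5.70 to 7.13.

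None of 7 other adenylate kinase genes passed in any comparison, and none of their 63 tests had an unadjusted p under 0.05. The smallest p values belonged to Ak7, a gene of motile cilia, at 4.49 ± 2.19 FPKM in F2 PNO and 2.31 ± 0.960 in F2 saline (SD, n = 4), to the mitochondrial Ak3 and to Ak9, with limma adjusted p of 0.54, 0.67 and 0.63. Rad17 and Ccdc125, which lie beside Ak6 and Taf9, ranged from 3.32 to 5.41 and from 0.70 to 2.17 over the 24 libraries.

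Retsat was the gene whose level followed a group most closely. In F1 saline it was 12.39, 12.29, 13.26 and 13.12 FPKM. In F1 PNO it was 30.39, 21.36, 25.15 and 33.52. In F1 IUO it was 19.60, 13.55, 15.77 and 15.39. The 3 F1 groups did not overlap at all, with F1 saline lowest and F1 PNO highest. Pair by pair, counting both directions, 2.54% of rows were without overlap in F1 IUO against F1 saline. The share was 8.27% in F1 PNO against F1 saline and 10.5% in F1 IUO against F1 PNO. Rows with all 3 groups apart were not counted.
In F2 saline it was 14.11, 12.37, 12.77 and 12.59. In F2 PNO it was 17.11, 13.38, 14.22 and 16.39, and in F2 IUO it was 15.65, 12.69, 14.23 and 16.37. The F2 groups overlapped one another. F2 PNO lay below F1 PNO without overlap (3.34% of rows were without overlap, counting both directions).

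The means were 12.8 ± 0.496 in F1 saline, 27.6 ± 5.41 in F1 PNO, 16.1 ± 2.54 in F1 IUO, 12.96 ± 0.784 in F2 saline, 15.3 ± 1.76 in F2 PNO and 14.7 ± 1.63 in F2 IUO (SD, n = 4). In order of mean, only F1 PNO stood apart from its neighbour. F1 PNO was 2.16-fold F1 saline (log2 difference 1.09 ± 0.15 SE), F1 IUO was 1.26-fold (0.32 ± 0.11), F2 PNO was 1.18-fold F2 saline (0.23 ± 0.09) and F2 IUO was 1.14-fold (0.18 ± 0.09). In all, 12 of 19134 rows (0.0627%) had all 4 F1 PNO libraries above the other 20, and 5 of those, AC108616.2, Cpne4, Elavl4, Nrn1 and Retsat, did so with a mean at least 1.5-fold that of the rest. Of the variation of Retsat, 84.5% lay between groups, and only RF00026, an RNA family entry at 89.6%, had a higher share. Retsat was picked for its levels in these libraries, so nothing is read from its place among the rows. No other row carried the description of Retsat.

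Elmod3, an ELMO domain gene whose start lies back to back with that of Retsat, did not share the higher level in F1 PNO. It was 5.70 to 7.13 FPKM there and 7.48 to 9.04 in F1 saline. The means were 6.52 ± 0.636 and 8.24 ± 0.648 (SD, n = 4; limma log2 difference -0.33 ± 0.12 SE), and the adjusted p of 0.28 did not pass. Over the 24 libraries the log2 values of Retsat and Elmod3 had a Pearson r of -0.54, a description over libraries that include the 4 F1 PNO ones. The Elmod3 start at 230 bases lies within the Retsat window shown above.

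Of 27 other retinoid genes, 25 to 27 were tested and none passed, with 20 of 235 tests (8.51%) at an unadjusted p under 0.05. Rdh14, a retinol dehydrogenase gene, was 8.34 ± 0.945 FPKM in F1 PNO and 6.01 ± 0.113 in F1 saline (SD, n = 4; limma adjusted p = 0.23). Cyp26a1, which encodes a retinoic acid-degrading enzyme, was 0.18 to 0.62 in the F2 IUO libraries and 0 to 0.06 in those of F1 IUO (limma adjusted p = 0.23). Rdh12 was 0.435 ± 0.111 in F1 IUO and 0.968 ± 0.0806 in F1 saline (limma adjusted p = 0.999). In F1 PNO against F1 saline, 1 retinoid gene with an unadjusted p under 0.05 was higher and 1 was lower.

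The 5 genes did not vary as a set. Over 24 libraries the Pearson r of their log2(FPKM + 0.1) values was 0.54 for Ak6 and Retsat and 0.48 for Zfp7 and Cda, and it ranged from -0.26 to 0.28 for the other 8 pairs. These points share libraries, and for Tctn3, Zfp7 and Cda they rest on values at 0.
The rows most like each gene, of 16277 compared, were Apom, Bub1 and Poglut1 for Tctn3 (r of 0.68 to 0.62), Chac1, Slc1a5 and Anpep for Zfp7 (0.79 to 0.73) and Jhy, LOC108351520 and LOC100363289 for Cda (0.67 to 0.66). For Ak6 they were Akirin2, Capza2 and Rpp30 (0.85 to 0.82), and for Retsat Snrpb2, LOC102556337 and Guf1 (0.66). The rows least like them were Acot8 for Tctn3 (-0.62), Calb1 for Zfp7 (-0.73), Ptx3 for Cda (-0.67), Csf1r for Ak6 (-0.81) and Tmem44 for Retsat (-0.77). The rows of the same description were no nearer, at 0.05 for Tctn3, 0.36 for Zfp7, 0.24 for Cda and -0.12 for Ak6.

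Set side by side over the 9 comparisons, the 5 genes gave 10 of 45 gene and comparison pairs in which the 4 libraries of 1 group lay wholly above those of the other. The share over all rows tested was 6.34%, and as the genes were picked for their levels nothing is read from the difference. The comparisons of F2 with F1 saline (4.98% of rows) and of F2 with F1 IUO (10.7%) held none of the 5. Neighbours in the RefSeq order, 12 rows in all, gave no call in 108 tests, and 9 (8.33%) had an unadjusted p under 0.05.

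All 8 striatal marker genes were above 0 in every library, but their summed FPKM varied. It was 526.41 to 726.78 in F1 PNO, 485.8 to 1303.49 in F1 saline and 818.45 to 1147.22 in F1 IUO, so F1 PNO lay below F1 IUO without overlap. In F2 it was 756.74 to 1005.67 in saline, 734.67 to 1060.97 in PNO and 400.06 to 987.39 in IUO. Markers of adjacent tissue also varied within and between groups. The summed FPKM of 6 thalamic genes was 115.7 to 298.7 in F1 PNO, 19.4 to 149.3 in F1 saline and 26.9 to 138.9 in F1 IUO, and 6 hypothalamic genes summed to 3.99 to 12.7 in F1 PNO, 10.4 to 57.2 in F1 saline and 43.8 to 158.4 in F1 IUO. No marker of either list was at 0 in a whole group. Their part in the Ak6 and Retsat levels of F1 PNO was not tested, and over all libraries the thalamic markers had an r of 0.35 with Ak6, 0.31 with Retsat and 0.58 with Zfp7, and the hypothalamic markers -0.40 with Ak6 and -0.41 with Retsat. The r was 0.39 for blood markers with Ak6 and -0.50 for striatal markers with Zfp7. For Cda it was 0.39 with thalamic and -0.39 with blood markers. The 8 choroid plexus genes summed to 5.85 to 83.8 in F2 saline and up to 12286 in F2 IUO. Their r with the 5 genes ran from -0.22 for Cda to 0.27 for Zfp7. The 4 cortical genes summed to 7.88 to 316.4 in F1 saline alone. The 4 Y-linked genes summed to 27.3 to 36.1 in F1 saline and 0.03 to 2.57 in F2 saline, and from 0 to 44.5 in the other groups. In saline the Y-linked level and the generation therefore cannot be told apart, and in the comparisons with saline it was unbalanced. In such bulk RNA fewer cells of a type and less RNA per cell cannot be told apart.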

How the data were processed

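NAc RNA of 24 P14 rats was sequenced. Per the labels and the study's methods, reads were aligned with HISAT2, transcriptomes of all samples were merged, and the authors deposited FPKM values from StringTie, 1 table per library with 2 decimals. The genome build and tool versions are not given in the sources used here. Row lengths are not in the tables, so read counts could not be recovered and depth is unknown. FPKM sums per library were 535866 to 766781, with 4782 to 7532 rows at 0. The values at 0 may be failed estimates, and are given per library with no mean.

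The members and gene lists were chosen with earlier results of these data known. Groups were those of the treatment labels. Lists and neighbours were tested with limma 3.58.1 (R 4.3.3; lmFit, eBayes with trend) on log2(FPKM + 0.1), for rows at 0.1 FPKM or more in at least 4 of the 8 libraries of a comparison, two-sided, with Benjamini-Hochberg adjustment over all rows tested. Differences on this scale understate changes of low genes. The fit was tested on simulated data. Other settings were tried (pseudocount, filters, upper-quartile rescaling, a joint fit, a replicate block, each library left out).

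Rows named beside the members were drawn from those sharing a description or KEGG orthology entry and the 2 RefSeq neighbours on each side. Also named were list genes that passed, or else the 3 with the smallest p. The 3 most and 1 least similar rows by Pearson r were taken among rows at 0.5 FPKM or more in at least 4 libraries. Not described were the rows sharing only a KEGG entry with Zfp7 (Atf6b, LOC501406 and AABR07009083.1) or with Cda (Higd2a and AABR07035091.1). Sequences are from RefSeq (GRCr8), Python 3.11.15 was used for counts. The block by the number in the library titles was not used, as in no comparison did all 4 same-numbered pairs of libraries deviate together (r over 0.1 in 6 of 36 pairs).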

Additional observations from a re-analysis of the deposited data

Results flagged for a closer look

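The 5 members, the rows of the same description and the neighbours, 21 rows in all, gave 126 groups of 4 libraries. In 14 of them the gap of a library to the nearest other exceeded Dixon's critical share of the range at the 95% level. This is a flag and not a test of the members. The usual 6.3 in 126 is no valid expectation here. A group with all 4 libraries at 0 cannot be flagged, and one with 3 at 0 and 1 above 0 always is. For the members, the library apart was replicate 1 of F1 PNO (1.36 FPKM) and replicate 3 of F2 IUO (2.07) for Tctn3, and replicate 2 of F1 saline (2.56), replicate 4 of F1 IUO (0.58) and replicate 1 of F2 PNO (0.73) for Cda. In all of these but the last, the other 3 libraries were at 0, so any single value above 0 is far from the rest.

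Among the other rows, LOC100909857 stood apart in replicate 3 of F1 IUO (1.12, the rest at 0) and Entpd1 in replicate 1 of F2 saline (0.26, the rest 2.85 to 3.33). Commd5 did so in replicate 3 of F1 PNO (6.26) and replicate 4 of F1 IUO (9.92), and Fam43b in replicate 3 of F1 PNO (20.51) and replicate 1 of F2 IUO (26.41). Taf9 was 37.25 in replicate 1 of F2 PNO against 7.96 to 10.39 in the other 3, and Ak6 was 24.78 there. Tgoln2 was 14.56 in the same library, and Tcf7l1 was 4.06 in replicate 4 of F1 PNO. No difference of an exposure effect between F1 and F2 passed limma's interaction test for any list or neighbour row (0 calls; 9, 9 and 11 unadjusted p under 0.05 of 311, 311 and 309 rows for PNO against saline, IUO against saline and IUO against PNO, beside 674 of 17268, 884 of 17102 and 1000 of 17032 over all rows, also with 0 calls).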

How the results depend on the processing

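The number of on/off rows, 12, depended on the limits: it was 20 with values up to 0.1 counted as off, 7 with at least 1 FPKM counted as on, 46 with at least 0.2, and 12 after upper-quartile rescaling. Without the 4 libraries with the most rows at 0, an alternative chosen after seeing the data, it was 58, where fewer libraries had to meet the rule. Leaving out a single library gave 12 to 29 rows, highest without replicate 3 of F2 IUO; it was 23 without replicate 2 of F1 PNO, 21 without replicate 2 of F1 saline or replicate 3 of F2 saline, 20 without replicate 1 of F1 saline or replicate 4 of F2 PNO and 19 without replicate 1 of F2 IUO. Tctn3 met the rule in every setting and Zfp7 in all but the limit of 1 FPKM; Cda joined with the limit of 0.2 or without replicate 2 of F2 saline. The member and comparison pairs without overlap numbered 10 to 12 with a library left out. Of 450 recomputed member differences, 8 moved by more than 1 SD and 6 changed sign.

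No list, neighbour or same-description row passed in any setting except numbered zinc finger genes without replicate 1 of F2 saline, where the count over 9 comparisons rose from 0 to 2 (0 to 2 over all single libraries left out). Both were Zfp622, named after its values were seen. With the replicate block the counts were 0 for every list, and calls over all rows fell from 35 to 6; they were 19 without the filter, 17 after upper-quartile rescaling and 16 in the joint fit of 24 libraries. Same-numbered libraries had correlations of -0.33 to 0.20, so no pairing by number was seen, though these values cannot exclude one. Depth is unknown, so a value at 0 gives no upper limit.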
